A study of Ovis aries with 49 samples.

Results

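The heat shock proteins and chaperones described here are 61 genes, read on 61 of the 10273 probe sets of the series. They were chosen by gene symbol alone, as members of the HSP70, HSP110, HSP90, small heat shock protein, mitochondrial chaperonin, CCT/TRiC, DNAJ, BAG, protein disulfide isomerase and calnexin/calreticulin families and the HSP70 cofactor HSPBP1. RNA came from 5 adipose tissue depots (epicardial, omental, perirenal, sternal and subcutaneous) of sex-matched twin lambs of Bluefaced Leicester × Swaledale ewes. One twin of each pair was sampled at 7 days of age and the other at 28 days, and the study took all depots from each lamb. The arrays of an age are not one full set of lambs by depots. Their titles hold 7 different numbers at 7 days and 8 at 28 days, each found in some depots only or in all. The labels do not say whether a number is a lamb. Each depot and age gave 5 arrays, except subcutaneous fat at 7 days with 4, so that 25 arrays were at 28 days and 24 at 7 days. The labels name neither the diet of the mother nor the litter, although the study fed its ewes either a standard or an oil-supplemented diet. All groups share one unexplained letter in their titles, and a description common to all labels gives an age range other than the ages used here. A larger piece of tissue was extracted from the older lambs, so age and tissue amount cannot be told apart.

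Chaperones bind proteins that are newly made or have lost their fold. Small heat shock proteins hold unfolded proteins without using ATP. HSP70 proteins refold them in ATP-driven cycles that J-domain (DNAJ) proteins start and exchange factors such as HSPH1, HSPBP1 and the BAG proteins end. HSP90 matures kinases and steroid receptors, the CCT/TRiC ring folds actin and tubulin, and HSPD1 with its lid HSPE1 folds proteins in the mitochondrial matrix. In the endoplasmic reticulum, HSPA5, HSP90B1, calnexin, calreticulin and the disulfide isomerases fold secreted proteins. In adipose tissue these systems serve a secretory cell that, in the newborn lamb, also carries many mitochondria in its brown fat.

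The values are log2 signals of human probes hybridised with sheep RNA, and levels of different probe sets were not compared. All differences are on this log2 scale and are given as depot minus the other 4 depots, or as 28 minus 7 days, with ± SE from limma. A member was called at an adjusted p (FDR over all 10273 probe sets) of at most 0.05. The lowest signal of the table was 2.49 and 82.7% of all values lay below 4. Of the 61 members, 22 had a mean over the arrays of at least 4, 10 a mean between 3 and 4 and 29 a mean below 3, and 32 did not reach 4 on any array. Of all probe sets 17.1% had a mean of at least 4, against 36.1% of the members. The DNAJ family had 30 members with 11 of them at 4 or more, HSP70 had 7 with 4, the small heat shock proteins 4 with 1 (HSPB1), and none of the 6 CCT/TRiC subunits reached that mean. On 40 of the 61 members 10 or more arrays shared one identical value, as on 81.7% of all probe sets, and for a group at such a value the true difference can be larger than the printed one.

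**Figure D1:**
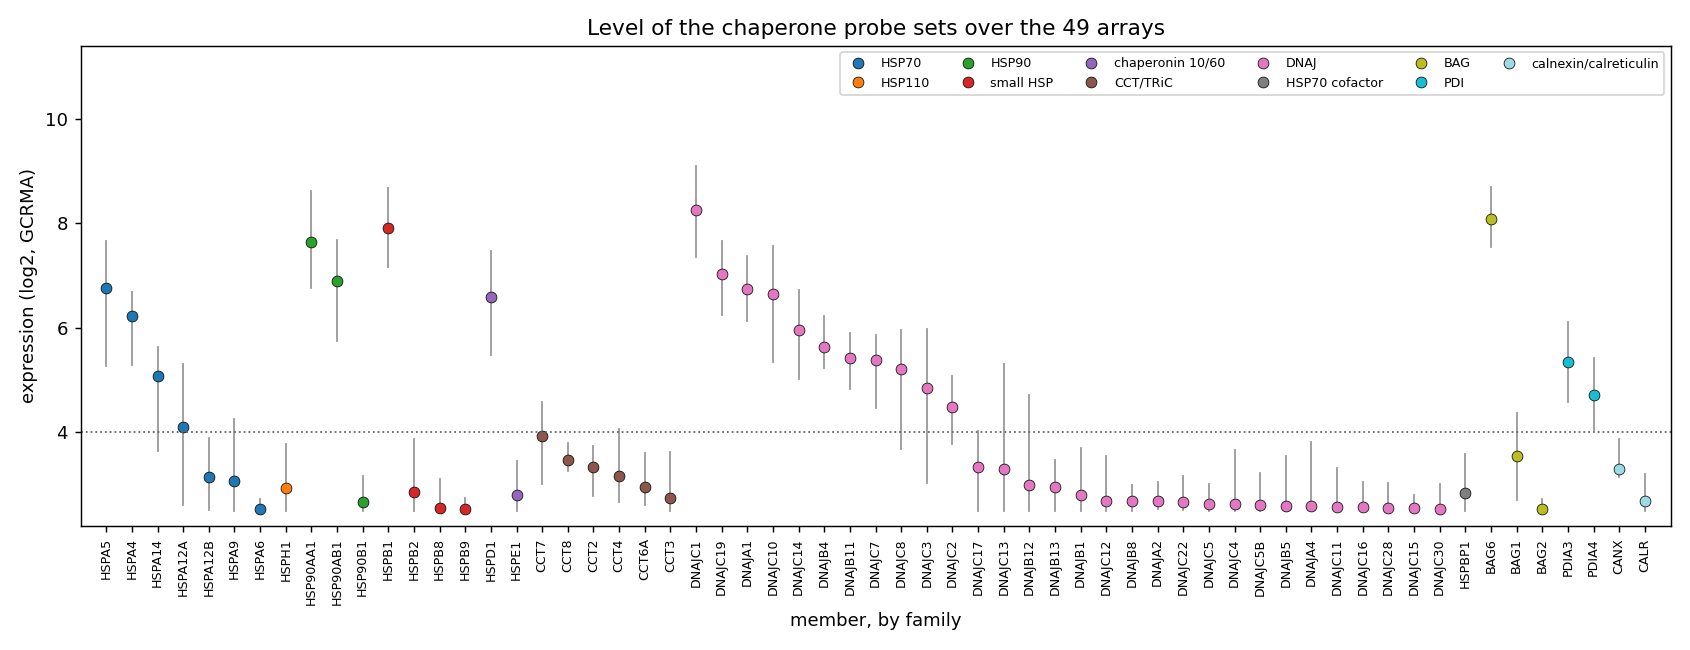
Signal of the 61 members by family, with the log2 signal on the vertical axis and the members along the horizontal axis. The dot is the mean of all 49 arrays, the line runs over the lowest and highest array, and the dotted line marks 4, which 22 of the means reach.

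Whole arrays and other tissues moved with some groups. The mean of all probe sets was 3.27 in sternal fat at 28 days, against 3.40 to 3.42 in the other 28-day depots. The mean of the 61 members was 3.88 ± 0.036 (SD, n = 5) in sternal fat at 28 days, against group means of 4.04 to 4.14 in the other depots. Of the adipocyte marker list, 8 of 12 genes were measured and 1 had a group mean of at least 4, with FABP4, LPL and PPARG near the lowest signal, so that the labelled tissue could not be checked closely on these arrays. Cardiac muscle markers (13 of 20 measured) averaged 2.68 to 8.35 per array in epicardial fat at 28 days and 6.37 to 8.64 at 7 days, with 10 and 11 genes higher than in the other depots. Skeletal muscle markers (15 of 20 measured) averaged 2.69 to 7.12 in sternal fat at 28 days, with 7 genes higher, and 2.68 to 7.37 in subcutaneous fat at 7 days, with 5 higher. CKM, muscle creatine kinase, exceeded 4 on 3 of 5 sternal arrays at 28 days and 1 of 5 at 7 days, and on 2 of 5 subcutaneous arrays at 28 days and 3 of 4 at 7 days. Leaving out these muscle-containing arrays keeps 1 subcutaneous array at 7 days and 2 sternal arrays at 28 days. A call lost without them can therefore come from the smaller groups. CKM also exceeded 4 on 5 of 5 epicardial arrays at 7 days and 4 of 5 at 28 days, and that alternative keeps these arrays. Fewer cells of a type and less RNA per cell cannot be told apart in such tissue samples.

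At 7 days 9 of the 61 members differed among the depots by the F test of limma, against 8.16% of all probe sets, and BAG6, DNAJC19 and CCT4 had the smallest p-values. In epicardial fat 4 members were higher (HSPB2, DNAJC19, HSPA14 and BAG6, background 3.35%) and HSPD1 was lower (background 0.72%), against 1 higher and 2 lower after quantile normalization. Of all probe sets 224 were higher and 228 lower there after quantile normalization. In omental fat PDIA3 was higher (background 0.565%), and BAG6 and DNAJC19 were lower (background 0.973%). In perirenal fat CCT3, BAG6 and HSPB1 were higher (background 4.58%) and 0 members lower (background 0.535%). In sternal and subcutaneous fat limma called 0 members. The background was 0.273% higher and 0.925% lower in sternal fat, and 0.827% and 0.701% in subcutaneous fat.

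At 28 days 19 members differed among the depots, against 20% of all probe sets, and HSPB1, DNAJC10 and HSPH1 led. Sternal fat had HSPB1 as its single higher member (background 1.65%) and 18 lower members (29.5% of them, background 18.4%), among them DNAJC10, CCT2, DNAJC7, DNAJC14 and HSPA14. Of the members 3 (DNAJC10, CCT2 and DNAJC7) lay below every array of the other depots there, as did 2.14% of all probe sets. Omental fat had 5 higher members (HSPH1, CCT8, PDIA3, CANX and CCT2, background 4.76%) and perirenal fat 3 (HSPA12A, HSPB1 and HSP90B1, background 2.87%), with 0 lower in either (background 0.36% and 0.487%). Epicardial fat had 2 higher members, HSPB2 and DNAJB5 (background 2.74%), and 0 lower (background 0.506%), against 1 higher and 4 lower after quantile normalization and 1 higher and 2 lower after a shift of all arrays to one mean. Subcutaneous fat had DNAJC3, DNAJC1 and DNAJC10 higher (background 2.58%) and HSPB1 lower (background 0.458%). Its counts were 0 higher and 1 lower with a replicate block, and also without the sternal and subcutaneous arrays in which CKM exceeded 4. The median difference of the 61 members was -0.13 in sternal fat, against -0.07 for all probe sets. In omental fat it was 0.11, against 0.01, and 46 members were above 0, against 56.2% of all probe sets. The omental median of the members was 0.07 after the shift, against -0.03, and 0.05 after quantile normalization, against -0.01. Under these scalings 2 and 1 members were called higher in omental fat, and 270 and 223 of all probe sets.

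**Figure D2:**
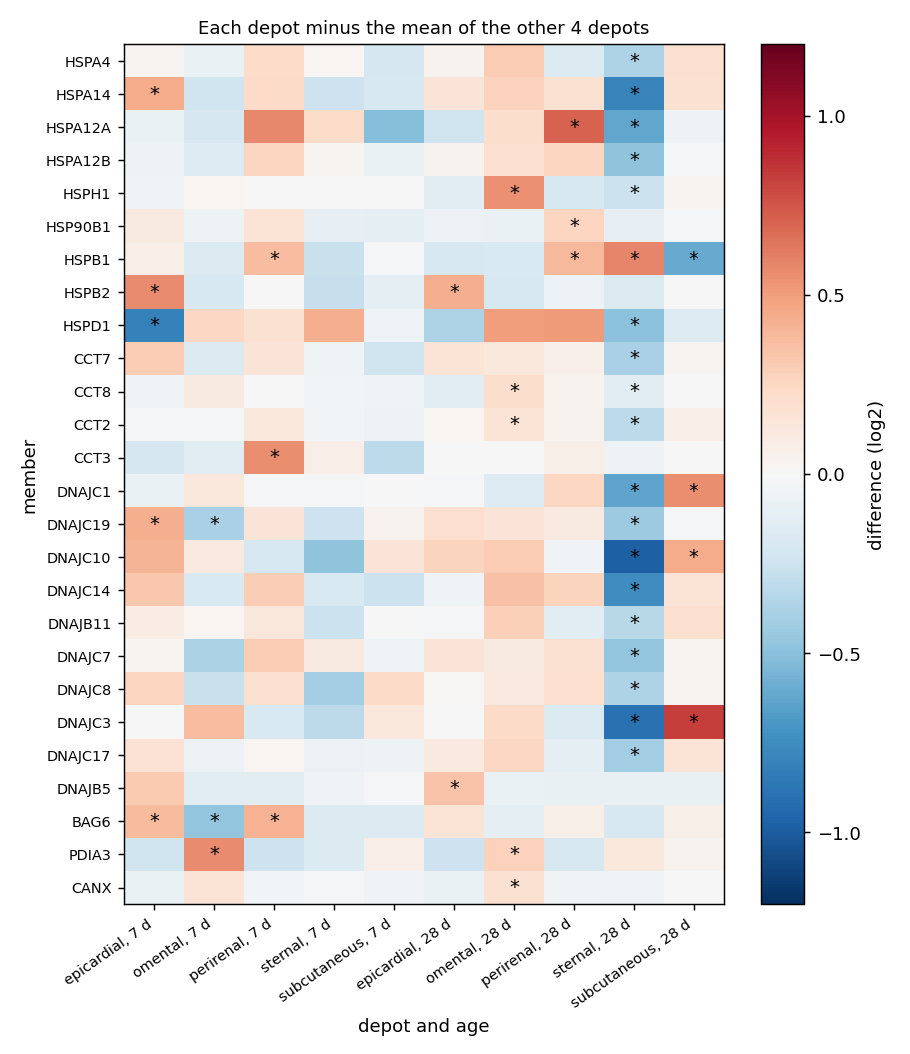
Differences on the log2 scale (colour) of the 26 members called in at least 1 comparison of a depot with the mean of the other 4, with the 5 depots at 7 days in the left columns and at 28 days in the right. Asterisks mark calls at an adjusted p of at most 0.05, and the sternal column at 28 days holds 19 of them, 18 for lower signals.

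Between the ages, sternal fat had 5 members higher at 28 days (HSPB1, HSPA5, DNAJC8, DNAJB1 and PDIA3, background 2.47%) and 7 lower, with HSPD1 first (background 3.89%). Omental fat had 11 members higher at 28 days, led by HSPA12A, DNAJC14, DNAJC8, CCT4 and HSPA14 (background 13.5%), and HSP90AB1 and HSPE1 lower (background 1.03%). Perirenal fat had HSPA12A and DNAJC8 higher (background 6.23%), and CCT3, HSPE1, BAG6 and DNAJC15 lower (background 3.09%). Epicardial fat had HSPA12A higher (background 4.21%), and DNAJC19 and BAG6 lower (background 1.63%). Subcutaneous fat had HSPA12A, DNAJC14 and DNAJC1 higher (background 7.68%) and HSP90AB1 lower (background 1.57%). The counts in omental fat moved with the scaling of the arrays. There 11 members were higher and 2 lower in the deposited values, 6 and 8 after all arrays were shifted to one mean, and 3 and 6 after quantile normalization. The split of all probe sets moved too, with 1391 higher and 106 lower, 730 and 1011, and 394 and 374 in the same order. In the other depots the members' counts of both directions changed by at most 2 under these scalings. Of all probe sets 11.2% lay above every 7-day array at 28 days in omental fat, 7.02% in subcutaneous, 6.32% in perirenal, 3.87% in epicardial and 1.33% in sternal fat. Those below every 7-day array were 0.409%, 1.03%, 2.54%, 0.73% and 2.2% in the same order.

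**Figure D3:**
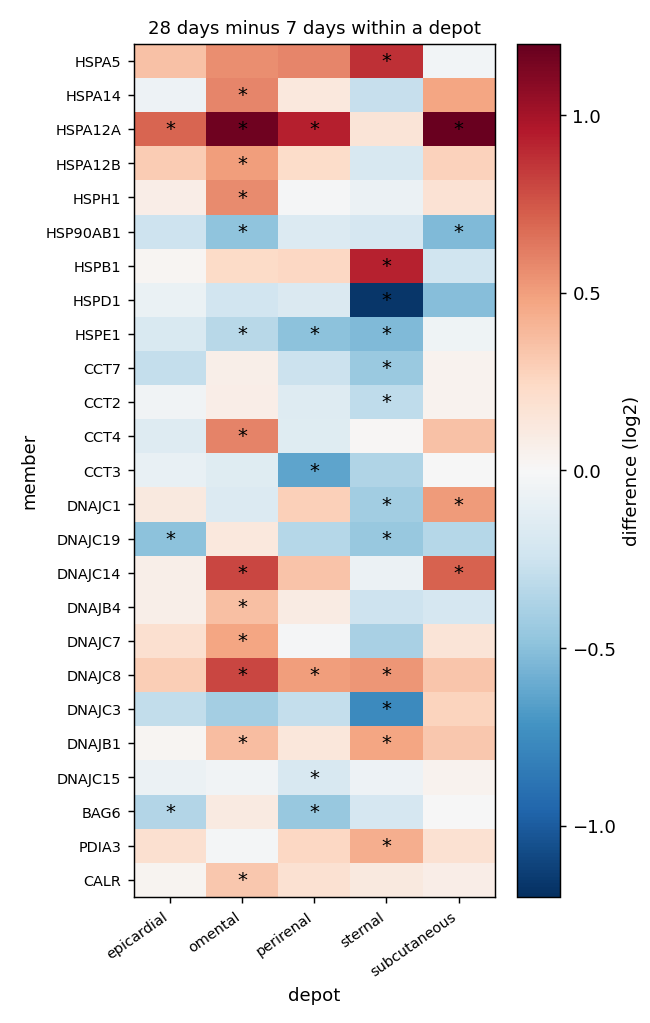
Differences between 28 and 7 days on the log2 scale (colour) in the 5 depots for the 25 members called in at least 1 of them, with asterisks for calls at an adjusted p of at most 0.05. The sternal column holds 12 calls and the omental column 13.

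HSPB1, the small heat shock protein Hsp27 that binds unfolded proteins and actin filaments, was at 28 days higher in sternal fat, and lower in subcutaneous fat, than in the remaining depots. In sternal fat it measured 8.51, 8.58, 8.17, 8.68 and 8.52 at 28 days, against 7.61, 7.45, 7.70, 7.59 and 7.49 at 7 days. All 28-day arrays lay above all 7-day arrays, a difference of 0.92 ± 0.11 (1.90-fold, adjusted p = 1.41e-07). At 28 days sternal fat averaged 8.49 ± 0.192 (SD), against 7.90 in the other 4 depots (0.59 ± 0.09, adjusted p = 9.87e-05), although perirenal fat reached into its range with 8.24 to 8.55. Subcutaneous fat at 28 days measured 7.75, 7.44, 7.16, 7.70 and 7.63, an average of 7.54 against 8.14 in the other depots (-0.61 ± 0.09, adjusted p = 0.000476), with its highest arrays at the lower edge of epicardial fat. Perirenal fat was higher than the other depots at both ages, by 0.39 ± 0.09 at 28 days (adjusted p = 0.0197) and by 0.37 ± 0.08 at 7 days (8.36, 8.25, 7.94, 7.89 and 7.98, adjusted p = 0.0114). The call at 28 days was lost without the array PrR_C_4W_32_146 (arrays are named by their titles, adjusted p = 0.0817), and that at 7 days without PrR_C_1W_63_105 or PrR_C_1W_64_117 (adjusted p up to 0.0621). The 28-day call was also lost after quantile normalization, and the 7-day call after the shift to one mean and without the muscle-containing arrays (up to 0.0636).

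The change of HSPB1 with age differed among the depots (interaction, adjusted p = 6.02e-05), which rested on sternal fat: without the sternal arrays the adjusted p was 0.187. The 28-day minus 7-day differences were 0.25 ± 0.11 in perirenal, 0.23 ± 0.11 in omental, 0.02 ± 0.11 in epicardial and -0.24 ± 0.12 in subcutaneous fat, none of them called. Across the tested alternatives the sternal rise with age lay between 0.78 and 1.01 and stayed called, also without the sternal and subcutaneous arrays in which CKM exceeded 4. Fibroblast and matrix genes also rose in sternal fat, with 8 of 11 called and list means of 6.07 to 6.90 per array at 28 days, against 5.32 to 5.76 at 7 days, and their part in the HSPB1 result was not tested.

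HSPB2, a small heat shock protein found mainly in heart and skeletal muscle, was higher in epicardial fat. There it measured 3.19, 2.72, 3.82, 3.62 and 3.05 at 7 days, a mean of 3.28 against 2.71 in the other depots (0.57 ± 0.11, adjusted p = 0.00386). At 28 days epicardial fat measured 3.04, 2.96, 3.87, 2.93 and 3.29, a mean of 3.22 against 2.78 (0.43 ± 0.12, adjusted p = 0.0428). Of all 49 arrays 16 stood at 2.72, an epicardial one among them. The 28-day call was lost on leaving out any one of 18 of the 25 arrays (adjusted p up to 0.179) and under both other scalings (0.37 after quantile normalization and 0.40 after the shift to one mean). The cardiac markers were high in the same depot, and their part in the HSPB2 result was not tested. HSPB8, which works with BAG proteins in selective autophagy, and the testis protein HSPB9 stayed at or near the lowest signal (highest arrays 3.09 and 2.73) and were not called in any comparison.

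HSPD1, the mitochondrial chaperonin Hsp60, was lower in sternal fat at 28 than at 7 days and at 7 days lower in epicardial fat than elsewhere. Sternal fat measured 6.10, 6.20, 6.41, 5.47 and 5.74 at 28 days, against 7.38, 6.89, 7.30, 7.34 and 6.85 at 7 days. The ages did not overlap, and the difference was -1.17 ± 0.20 (2.25-fold lower, adjusted p = 8.8e-05). It lay between -1.28 and -0.84 in all alternatives and stayed called. Epicardial fat at 7 days measured 6.58, 5.98, 6.23, 5.92 and 6.07, a mean of 6.16 against 6.97 in the other depots (-0.81 ± 0.17, adjusted p = 0.00473). At 28 days the epicardial mean was 6.08, and the difference of -0.37 ± 0.15 from the other depots was not called (adjusted p = 0.25). Subcutaneous fat had 6.63, 6.26, 6.11, 6.14 and 6.14 at 28 days, against 6.08, 7.31, 6.58 and 7.11 at 7 days, and its difference of -0.51 ± 0.22 was not called (adjusted p = 0.141). The other depots changed by -0.23 to -0.08 with age, and the interaction had an adjusted p of 0.0391, lost without any one of 10 arrays (up to 0.103), under both other scalings, without the muscle-containing arrays and without the sternal arrays (up to 0.751).

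HSPE1, the lid of the HSPD1 ring, was lower at 28 than at 7 days in sternal, perirenal and omental fat, all close to the lowest signal. Sternal fat measured 2.56, 2.65, 2.62, 2.65 and 2.65 at 28 days, against 3.39, 3.12, 3.16, 3.45 and 2.65 at 7 days (-0.53 ± 0.11, adjusted p = 0.00117). In perirenal fat all 5 arrays stood at 2.65 at 28 days, against 3.39, 2.65, 3.17, 3.07 and 3.42 at 7 days (-0.49 ± 0.11, adjusted p = 0.00225). One 7-day array of each depot was thus at the value of the 28-day arrays, a value that 23 of 49 arrays shared. Both calls were lost with only the depot's own arrays in the fit (adjusted p up to 0.129). The omental difference of -0.33 ± 0.11 (adjusted p = 0.0362) was lost without any one of 7 arrays (up to 0.133). In epicardial and subcutaneous fat the differences of -0.18 and -0.05 were not called. Of the 5 brown fat markers measured, UCP1, the uncoupling protein of brown fat, was lower with age in perirenal (-3.37 ± 0.36) and sternal fat (-1.56 ± 0.36). The UCP1 mean was also lower at 28 than at 7 days in epicardial (2.90 against 4.04) and omental fat (2.91 against 3.65), but not in subcutaneous fat (2.91 against 2.72). CIDEA, another of these markers, stayed near the lowest signal and was slightly higher at 28 days in every depot, as in omental fat (2.88 against 2.72). PPARGC1A, a coactivator of mitochondrial genes, was lower in perirenal, sternal and also epicardial fat (-1.25 ± 0.33), where HSPE1 was not called. In omental fat, where HSPE1 was called, 0 brown fat markers were. Their relation to the chaperonin values was not tested.

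HSPA12A, a distant member of the HSP70 family, was higher at 28 than at 7 days in every depot but sternal fat. Omental fat measured 4.70, 4.86, 4.50, 4.53 and 4.74 at 28 days, against 3.23, 3.74, 3.83, 3.32 and 3.40 at 7 days (1.16 ± 0.21, 2.24-fold, adjusted p = 0.000114). Perirenal fat measured 5.26, 5.18, 5.30, 4.51 and 5.05 at 28 days, against 3.81, 3.80, 4.43, 4.44 and 4.15 at 7 days (0.93 ± 0.21, adjusted p = 0.00229). Subcutaneous fat measured 4.51, 5.01, 4.55, 4.05 and 4.10 at 28 days, against 3.67, 3.42, 3.34 and 2.60 at 7 days (1.19 ± 0.23, adjusted p = 0.000488). The ages did not overlap in these 3 depots, where 6.32% to 11.2% of all probe sets also lay wholly above at 28 days. In epicardial fat (0.70 ± 0.21, adjusted p = 0.0386) the ages overlapped. Sternal fat measured 3.74, 4.11, 4.08, 4.33 and 3.74 at 28 days, against 3.74, 3.74, 4.08, 3.90 and 3.74 at 7 days, and its difference of 0.16 ± 0.21 was not called. The interaction was not called either (adjusted p = 0.0727), so that a different change in sternal fat was not shown.

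Among the depots at 28 days HSPA12A was highest in perirenal fat, with a mean of 5.06 against 4.35 in the other depots (0.71 ± 0.13, adjusted p = 0.00309), and lower in sternal fat, with 4.00 against 4.62 (-0.62 ± 0.13, adjusted p = 0.00203). The sternal call was lost after quantile normalization, with a difference of -0.22. The epicardial call with age was lost without any one of 6 arrays (adjusted p up to 0.241). Leaving out the muscle-containing arrays leaves too few subcutaneous arrays at 7 days to judge the subcutaneous call. The omental and perirenal changes with age stayed called under all alternatives. HSPA12B, its closest relative, lay near the lowest signal and was higher at 28 than at 7 days in omental fat (0.50 ± 0.14), a call lost without OM_C_4W_13_153 (adjusted p = 0.0612).

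**Figure D4:**
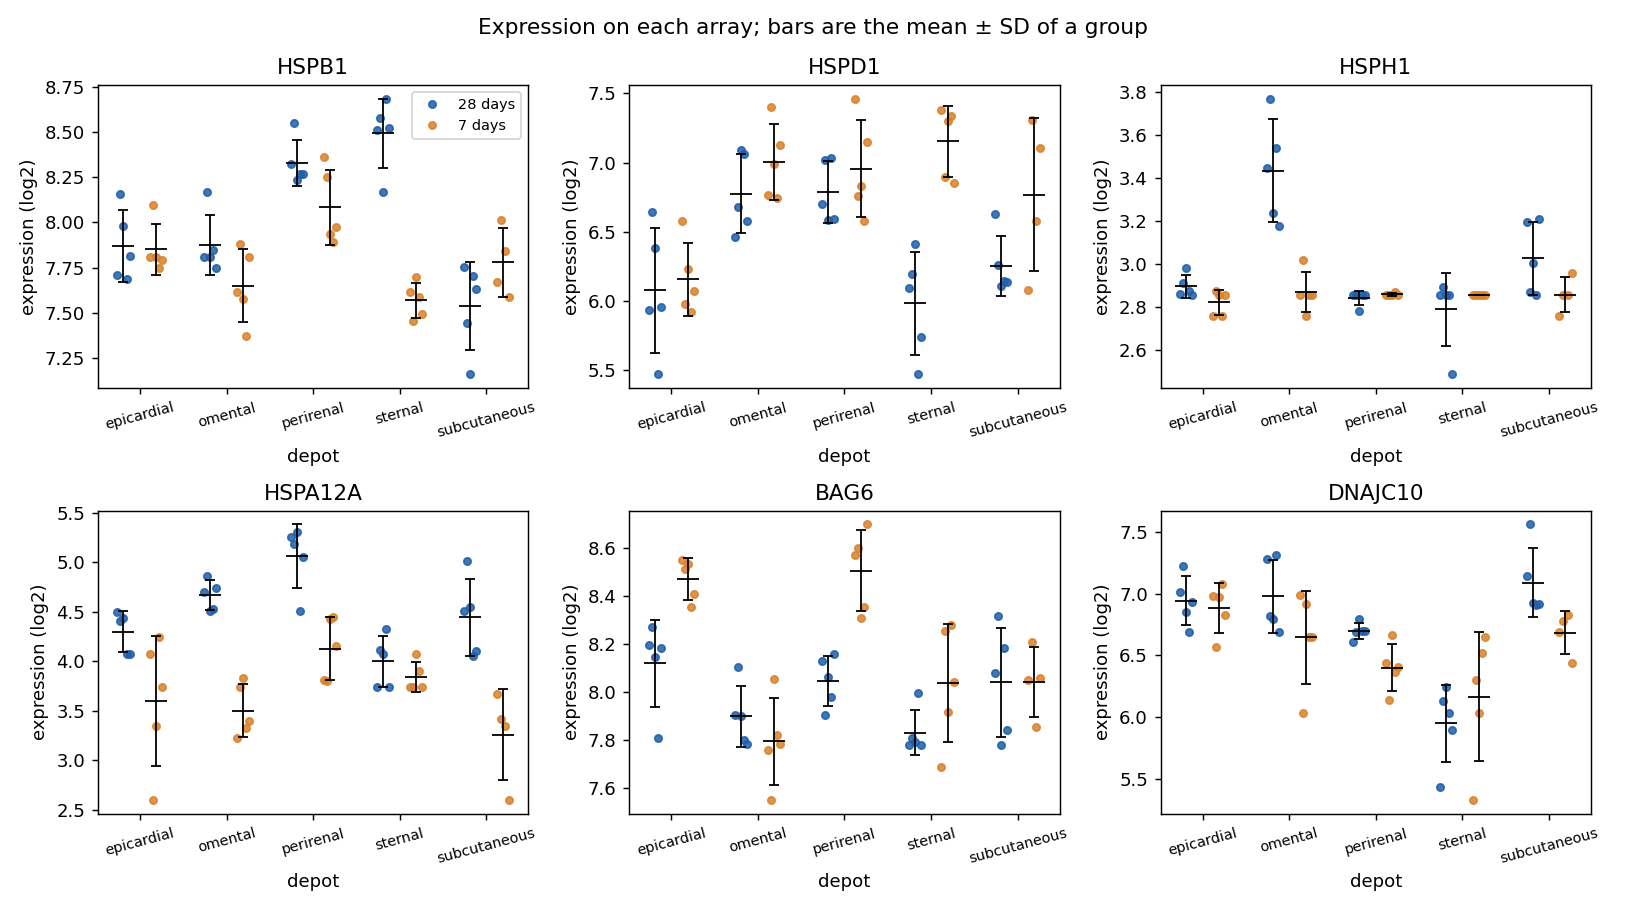
Log2 signal of HSPB1, HSPD1, HSPH1, HSPA12A, BAG6 and DNAJC10 on each array by depot, with 28 days (blue) left of 7 days (orange). Points are arrays and bars show the mean ± SD. In sternal fat the 28-day arrays of HSPB1 lie above, and those of HSPD1 below, all 7-day arrays.

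HSPA5 (BiP), the HSP70 of the endoplasmic reticulum and a marker of the unfolded protein response, was higher at 28 than at 7 days in sternal fat. It measured 6.30, 7.05, 6.91, 7.15 and 7.31 at 28 days, against 6.43, 6.07, 5.26, 6.54 and 6.03 at 7 days (0.88 ± 0.22, adjusted p = 0.00875). The lowest 28-day array lay within the 7-day range, and the call was lost without the 7-day array St_C_1W_81_130 (adjusted p = 0.0587) and without the muscle-containing arrays (adjusted p = 0.299). In perirenal and omental fat the differences of 0.58 ± 0.22 and 0.56 ± 0.22 were not called (adjusted p = 0.101 and 0.086). In perirenal fat the arrays of 28 days (6.58 to 7.17) still lay above those of 7 days (5.84 to 6.54). HSPA14, an HSP70 bound to ribosomes, averaged 4.51 in sternal fat at 28 days, against 5.31 in the other depots (-0.80 ± 0.14, adjusted p = 0.000387), which was lost after quantile normalization (adjusted p = 0.0859) and without the muscle-containing arrays (adjusted p = 0.112). HSPA4, an exchange factor for HSP70, was lower there by 0.37 (5.86 against 6.24), and this turned to 0.0179 after quantile normalization. HSPA9, the mitochondrial HSP70, and HSPA6, the strictly heat-induced one, were not called in any comparison, with group means of 2.80 to 3.43 and 2.49 to 2.56.

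HSPH1, an HSP110 exchange factor and itself a heat shock gene, was higher in omental fat at 28 days than anywhere else. It measured 3.45, 3.77, 3.24, 3.54 and 3.18 in omental fat at 28 days, against 2.86, 3.02, 2.76, 2.86 and 2.86 at 7 days. The difference with age was 0.56 ± 0.08 (adjusted p = 8.88e-07), and that from the other depots at 28 days 0.54 ± 0.08 (3.43 against 2.89, adjusted p = 0.000127). The other depots were at or near 2.86, a value that 23 of 49 arrays shared, and only subcutaneous fat reached into the omental range, with 3.20, 2.87, 3.01, 2.86 and 3.21 at 28 days. The change with age differed among the depots (interaction, adjusted p = 0.000392). These 3 calls held under all alternatives run. FKBP5, an HSP90 co-chaperone induced by glucocorticoids, moved in the same group, by 0.91 ± 0.13 against the other depots and 0.89 ± 0.18 with age.

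Of the HSP90 members, HSP90AB1, the constitutive cytosolic form, was lower at 28 than at 7 days in omental and subcutaneous fat. Omental fat measured 6.84, 6.79, 6.70, 6.84 and 6.79 at 28 days, against 6.97, 7.69, 7.39, 7.17 and 7.15 at 7 days, with no overlap (-0.48 ± 0.16, adjusted p = 0.0383). Subcutaneous fat measured 6.89, 6.78, 6.87, 7.01 and 6.57 at 28 days, against 6.96, 7.60, 7.30 and 7.56 at 7 days (-0.53 ± 0.17, adjusted p = 0.0425). Each call was lost without any one of 7 arrays, with adjusted p up to 0.144 and 0.147. The subcutaneous call was also lost with only the subcutaneous arrays in the fit. HSP90AA1, the inducible form, was not called in any comparison, with group means of 7.42 to 7.96. HSP90B1, the form of the endoplasmic reticulum, was near the lowest signal. In perirenal fat at 28 days it measured 3.09, 2.58, 3.15, 2.58 and 2.86, above the other depots by 0.26 ± 0.06 (adjusted p = 0.0184), a call that was lost without PrR_C_4W_31_141, PrR_C_4W_33_153 or PrR_C_4W_35_150 (adjusted p up to 0.0945).

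Of the CCT/TRiC subunits, CCT3 was called in perirenal fat, where it measured 2.66, 2.67, 2.67, 2.69 and 2.59 at 28 days, against 2.96, 3.61, 3.19, 3.14 and 3.54 at 7 days (-0.63 ± 0.12, adjusted p = 0.00018). All 7-day arrays lay above all 28-day arrays. The perirenal mean at 7 days of 3.29 was above that of the other depots by 0.56 ± 0.13 (adjusted p = 0.0137), which was lost without PrR_C_1W_64_117 or PrR_C_1W_67_115 (up to 0.0621). This call was also lost after quantile normalization and without the muscle-containing arrays (up to 0.0815). The signal was near the floor elsewhere, with 26 of 49 arrays at 2.59. CCT2 in sternal fat at 28 days measured 3.08, 3.18, 3.08, 2.77 and 3.08, below every array of the other depots, whose mean was 3.35 (-0.31 ± 0.05, adjusted p = 0.000103). CCT7 was 3.53 there against 3.92 (-0.39 ± 0.08). Both calls were lost after quantile normalization, with -0.11 and -0.08. CCT4 rose in omental fat with age (0.60 ± 0.17), a call lost without OM_C_4W_14_155 (adjusted p = 0.0609) and after quantile normalization (0.126). CCT8 was higher in omental fat than elsewhere at 28 days (0.21 ± 0.04), which fell to 0.091 after quantile normalization (adjusted p = 0.278).

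Of the 30 DNAJ proteins 9 were lower in sternal fat at 28 days, beside 4 of 7 in the HSP70 family and 3 of 6 CCT/TRiC subunits. The background there was 18.4% of all probe sets. DNAJC10 (ERdj5), a disulfide reductase of the endoplasmic reticulum, measured 5.44, 6.13, 6.25, 6.03 and 5.90 in sternal fat at 28 days. Every array of the other depots was higher, with 6.61 the lowest, and the means were 5.95 against 6.93 (-0.98 ± 0.12, adjusted p = 5.95e-06). The sternal arrays at 7 days were spread from 5.33 to 6.65, and the change with age was not called. DNAJC10 was also higher in subcutaneous fat at 28 days (0.45 ± 0.12, adjusted p = 0.0398), a call that was lost without any one of 14 arrays (up to 0.169). A replicate block, a trended and robust prior, and leaving out the muscle-containing or the sternal arrays also lost this call (up to 0.467). Across the alternatives the difference fell to 0.215.

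DNAJC1 and DNAJC3, both J-domain partners of HSPA5 at the endoplasmic reticulum, were lower in sternal and higher in subcutaneous fat at 28 days. DNAJC1 measured 7.65, 7.35, 8.26, 8.16 and 7.46 in sternal fat, against a mean of 8.41 in the other depots (-0.63 ± 0.12, adjusted p = 0.000845). In subcutaneous fat it measured 8.50, 8.59, 9.10, 9.02 and 8.41, against a mean of 8.17 (0.55 ± 0.12, adjusted p = 0.0118). The 2 depots did not overlap, and the sternal call held under all alternatives, while the subcutaneous call was lost without Su_C_4W_23_146 or Su_C_4W_24_153 (up to 0.064). The subcutaneous call was also lost with a replicate block and without the muscle-containing arrays (up to 0.221). DNAJC3 measured 4.86, 4.29, 3.02, 3.45 and 4.28 in sternal fat (-0.89 ± 0.20, adjusted p = 0.00265) and 5.57, 5.91, 5.38, 5.17 and 4.79 in subcutaneous fat (0.83 ± 0.20, adjusted p = 0.0191). One sternal array thus reached the lowest subcutaneous one. Both DNAJC3 calls were lost after quantile normalization and without the muscle-containing arrays, and the subcutaneous one without Su_C_4W_21_136, Su_C_4W_22_141 or Su_C_4W_23_146 (up to 0.0796).

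DNAJC14, a J-domain protein of the endoplasmic reticulum membrane that carries receptors to the cell surface, was higher at 28 than at 7 days in omental and subcutaneous fat. Omental fat measured 6.36, 6.34, 6.41, 6.72 and 6.24 at 28 days, against 5.67, 5.29, 6.05, 5.85 and 5.20 at 7 days (0.80 ± 0.16, adjusted p = 0.000482). Subcutaneous fat measured 6.25, 6.39, 6.05, 6.32 and 6.31 at 28 days, against 5.47, 5.53, 5.54 and 5.67 at 7 days (0.71 ± 0.17, adjusted p = 0.00614). The ages did not overlap in either depot. In sternal fat at 28 days it was 5.54 against 6.28 in the other depots (-0.74 ± 0.13), and the interaction was called (adjusted p = 0.0238, but 0.168 after quantile normalization). Leaving out the muscle-containing arrays leaves too few subcutaneous arrays at 7 days to judge the subcutaneous call. The sternal call was lost without these arrays or after quantile normalization (up to 0.0711).

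Among the other DNAJ proteins, DNAJC8, which associates with the splicing machinery, was higher at 28 than at 7 days in omental (0.80 ± 0.16), sternal (0.53 ± 0.16) and perirenal fat (0.50 ± 0.16). The ages did not overlap in these depots, although the sternal and perirenal calls were lost without any one of 8 and of 6 arrays (up to 0.121 and 0.152). The omental call was lost after quantile normalization and with only the omental arrays in the fit (up to 0.107). DNAJC19, a part of the motor that imports proteins into mitochondria, was higher in epicardial fat at 7 days (7.53 against 7.09, adjusted p = 0.00601) and lower there at 28 than at 7 days (-0.49 ± 0.14), a change lost without any one of 4 arrays (up to 0.157). DNAJC7, which links HSP70 and HSP90, was lower in sternal fat at 28 days without overlap (5.04 against 5.51, adjusted p = 0.000191), which shrank to -0.06 after quantile normalization. DNAJA1, the main cytosolic partner of HSP70, and DNAJC2, a ribosome-bound one, were not called in any comparison.

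**Figure D5:**
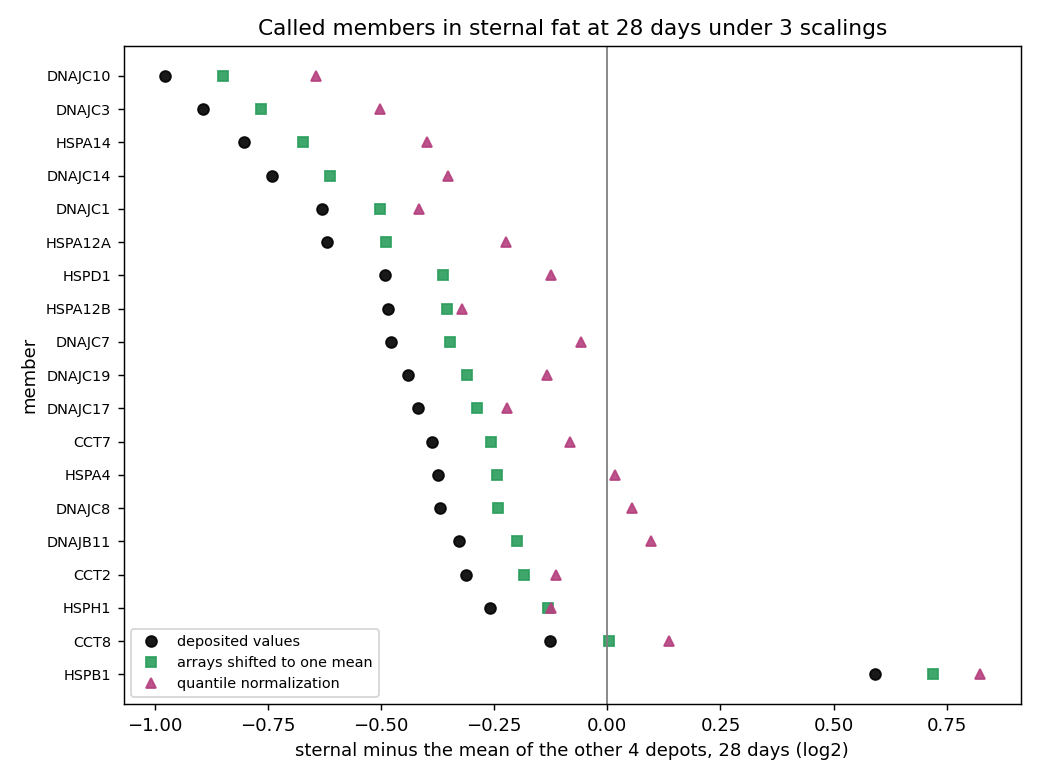
Sternal minus other depots at 28 days on the log2 scale for the 19 members called there, in the deposited values, after shifting all arrays to one mean and after quantile normalization. In these scalings 1, 2 and 5 members lie above 0, and 18, 17 and 14 below it.

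The split of the sternal differences at 28 days changed with the scaling. Limma called 1 higher and 18 lower members in the deposited values, 13 and 13 after a shift of all arrays to one mean, and 6 and 2 after quantile normalization. The split of all probe sets changed too, with 170 higher and 1891 lower in the deposited values, 2563 and 1022 after the shift, and 601 and 354 after quantile normalization. The median difference of all probe sets was -0.07 in the deposited values and 0.06 after the shift, and that of the members -0.13 and -0.0012. DNAJC10 and DNAJC1 stayed lower and HSPB1 stayed higher and called under each scaling, whereas CCT8, DNAJC8, DNAJB11 and HSPA4 turned to positive differences after quantile normalization. Without the sternal and subcutaneous arrays in which CKM exceeded 4, 8 members were lower and 1 higher.

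BAG6, which escorts membrane proteins to their insertion and marks faulty ones for degradation, separated the depots most at 7 days (F test, adjusted p = 0.000316). Perirenal fat measured 8.13, 7.90, 8.06, 7.98 and 8.16 at 28 days, against 8.57, 8.60, 8.31, 8.35 and 8.70 at 7 days (-0.46 ± 0.10, adjusted p = 0.00194). Epicardial fat measured 8.20, 8.27, 8.14, 7.81 and 8.18 at 28 days, against 8.55, 8.51, 8.53, 8.35 and 8.41 at 7 days (-0.35 ± 0.10, adjusted p = 0.0318). In both depots all 28-day arrays lay below all 7-day arrays. Omental fat measured 7.76, 7.55, 8.05, 7.82 and 7.78 at 7 days, below every perirenal and epicardial array of that age. The differences from the other 4 depots at 7 days were 0.42 ± 0.09 in perirenal (adjusted p = 0.00528), 0.38 ± 0.09 in epicardial (adjusted p = 0.0112) and -0.47 ± 0.09 in omental fat (adjusted p = 0.00524). The change of omental fat with age was not called (0.10 ± 0.10), and the F test at 28 days was not called (adjusted p = 0.13). The epicardial call at 7 days was lost after quantile normalization (adjusted p = 0.12). The epicardial change was lost without any one of 4 arrays (up to 0.158). It was also lost with a trended and robust prior and with only the epicardial arrays in the fit (up to 0.089). The interaction (adjusted p = 0.029) was lost without OM_C_1W_94_117 or OM_C_4W_12_146 (up to 0.0538), and after the shift to one mean and with that prior (up to 0.09). BAG1 and BAG2 were not called in any comparison.

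PDIA3, the disulfide isomerase that acts on glycoproteins with calnexin and calreticulin, was higher in omental fat than in the other depots at both ages. Omental fat measured 5.90, 5.58, 5.45, 5.75 and 5.62 at 28 days (0.28 ± 0.07, adjusted p = 0.0266) and 5.28, 6.11, 6.00, 5.76 and 5.28 at 7 days (0.57 ± 0.13, adjusted p = 0.0261). The 28-day call was lost without OM_C_4W_11_141 or OM_C_4W_14_155 (up to 0.126) and under both other scalings, and the 7-day call without OM_C_1W_94_117, OM_C_1W_96_130 or OM_C_1W_98_115 (up to 0.114). In sternal fat PDIA3 was higher at 28 days (5.59, 5.28, 5.43, 5.93 and 5.46) than at 7 days (4.90, 5.12, 5.24, 5.19 and 5.05), without overlap (0.44 ± 0.13, adjusted p = 0.0361), and this was lost without any one of 5 arrays (up to 0.165). Calreticulin (CALR) rose with age in omental fat by 0.33 ± 0.09, and calnexin (CANX) was higher in omental fat at 28 days by 0.19 ± 0.05, and both were lost under both other scalings. PDIA4 was not called in any comparison, with group means of 4.33 to 5.07.

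Other genes of these pathways were counted in lists of regulators, assistants and quality control genes. Of the heat shock regulators and cytosolic co-chaperones 18 of 32 were measured. CRYAB, the small heat shock protein of lens and muscle, was higher in epicardial fat by 2.36 ± 0.40 at 28 days and 2.97 ± 0.44 at 7 days, in the depot with high cardiac markers. In that list 4 genes were lower in sternal fat at 28 days (CDC37L1, ST13, FKBP5 and HSBP1, background 18.4%) and 0 higher (1.65%), with a list median of -0.15 against -0.07 for all probe sets. ST13, which hands clients between HSP70 and HSP90, was higher with age in omental (0.55 ± 0.11) and subcutaneous fat (0.46 ± 0.12).

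Of the unfolded protein response and folding genes of the endoplasmic reticulum 30 of 47 were measured. In omental fat 6 of them were higher at 28 than at 7 days (background 13.5%) and 0 lower (1.03%), among them SERPINH1, the collagen chaperone (0.54 ± 0.11), with a list median of 0.07 against 0.06 for all probe sets. In sternal fat 3 were higher with age (CREB3L1 by 1.23 ± 0.24, HYOU1 and ATF4, background 2.47%) and 1 lower (FKBP2, background 3.89%). At 28 days 5 were lower in sternal fat (background 18.4%), led by FKBP2 (-0.81 ± 0.11), with a list median of -0.03 against -0.07. Of the prefoldin subunits and other chaperonin assistants 9 of 16 were measured. PFDN5 was lower in subcutaneous fat at 7 days (-0.57 ± 0.07) and higher with age there (0.58 ± 0.11), beside TBCB and TBCD. Of the mitochondrial quality control genes 9 of 15 were measured, and the protease HTRA2 had the widest differences, -1.30 ± 0.16 in sternal fat at 28 days and 0.99 ± 0.21 with age in omental fat. Of the immediate early genes, which respond quickly to handling and stress, 20 of 26 were measured. At 28 days 10 were higher in subcutaneous fat than at 7 days (background 7.68%), 6 in sternal (2.47%), 4 in perirenal (6.23%), 2 in epicardial (4.21%) and 1 in omental fat (13.5%).

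The change with age differed among the depots for 10 of the 61 members, against 9.17% of all probe sets. Beside HSPB1, HSPH1, HSPD1, BAG6 and DNAJC14 these were DNAJC1 (adjusted p = 0.00426), DNAJC7, CCT2, HSPA14 and CCT3. DNAJC1 was higher with age in subcutaneous fat (0.51 ± 0.14) and lower in sternal fat (-0.42 ± 0.13). The subcutaneous call was lost under 4 alternatives, both other scalings among them, with differences down to 0.0071, and the sternal call under 5 (down to -0.24, adjusted p up to 0.534). Without the sternal arrays 5 members were called.

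Over the 49 arrays, with each group's mean removed, the median correlation between pairs of the 22 members with a mean of at least 4 was 0.068, and that of all 1752 such probe sets 0.055. The closest pairs were HSP90AB1 with HSP90AA1 (r = 0.66), HSPA4 with HSPA5 (0.60), HSPA5 with DNAJC19 (0.59) and HSPD1 with DNAJC19 (0.58). These pairs share arrays and their scaling. Over the 10 group means, the profile of HSPB1 was most like that of NCBP2 (r = 0.96), HSPD1 was most like HACL1 (0.96), HSPH1 like IGFBP2 (0.98), HSPA12A like JADE1 (0.96), BAG6 like CRLS1 (0.99) and DNAJC10 like INTS8 (0.97). Among the members, HSPA12A was closest to HSPA12B (0.88), BAG6 to DNAJC19 (0.84), and HSPD1 to CCT6A (0.75) and HSPE1 (0.73).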

How the data were processed

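Total RNA of 49 ovine adipose samples had been hybridised by the authors to human U133 Plus 2 arrays after in vitro transcription. The deposited values are log2 signals that the authors made with GCRMA. The software versions of that step: not given in the sources used here. GCRMA subtracts estimated background and gives many probe sets a shared lowest value, which shrinks differences near it. Arrays give no read depth, and their number limits the precision. Nothing in the sources used here gives a scan batch. Probe sets were named from the platform annotation (9780 with 1 symbol, 6 with several and 487 with none).

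The deposited log2 values were tested with limma 3.58.1 in R 4.3.3 on all 10273 probe sets, with Benjamini-Hochberg adjustment within each comparison. Depots were compared within each age by the moderated F test and by contrasts of each depot with the mean of the other 4, and ages were compared within each depot in 1 fit of all arrays, with the interaction. No block for the animal was used. The scripts were tested on simulated data. Genes were named by rule: the highest means of each family, the largest called rises and falls of each comparison, the smallest p-values of each F test, the largest called changes of each pathway list, and the genes most alike over the group means. The members and the lists (heat shock regulators, prefoldins, unfolded protein response, mitochondrial quality control, immediate early genes and cell type markers) were chosen with earlier results of these data known. Alternatives were a replicate block, a mean of at least 4, quantile normalization, arrays shifted to one mean, array weights, a trended and robust prior, only the depot's own arrays, leaving out muscle-containing arrays (sternal and subcutaneous arrays with CKM above 4), leaving out the sternal arrays, and leaving out each array. No sequences are shown.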

Additional observations from a re-analysis of the deposited data

Results flagged for a closer look

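The change with age differed among the 5 depots for 10 members by the interaction F test of limma, with adjusted p of 6.02e-05 for HSPB1, 0.000392 for HSPH1, 0.00426 for DNAJC1, 0.0238 for DNAJC14, 0.0241 for DNAJC7, 0.025 for CCT2, 0.029 for BAG6, 0.0335 for HSPA14, 0.0391 for HSPD1 and 0.0442 for CCT3. HSPB1 rose in sternal fat and HSPH1 in omental fat, while the calls of CCT3 and HSPA14 were lost without any one of 37 and of 5 arrays.

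Single arrays stood apart from the rest of their group in 22 of 166 groups examined over 17 members, where chance alone gives about 1 in 20 for values without ties. HSPB1 was highest in OM_C_4W_12_146 (8.17) among omental and in PrR_C_4W_32_146 (8.55) among perirenal arrays at 28 days, and in EpC_C_1W_33_117 (8.10) among epicardial arrays at 7 days. Without the perirenal array the perirenal call of HSPB1 at 28 days was lost. BAG6 was lowest in EpC_C_4W_04_155 (7.81) among epicardial and highest in St_C_4W_44_155 (7.99) among sternal arrays at 28 days. HSP90AB1 was highest in the sternal array St_C_4W_43_153 at 28 days (6.91), where all other sternal arrays shared the value 6.84. At 7 days HSP90AB1 was lowest in the epicardial array EpC_C_1W_37_115 (6.09) and highest in the perirenal array PrR_C_1W_65_130 (7.45). DNAJC1 was lowest in EpC_C_1W_37_115 (8.03) and highest in the sternal array St_C_1W_80_126 (8.53), DNAJC3 was highest in EpC_C_1W_32_105 (5.50) and PDIA3 lowest in the perirenal array PrR_C_1W_67_115 (4.57), all at 7 days.

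The others lay below 4, each in a group with repeated values. At 28 days these were HSPE1 in OM_C_4W_14_155 (2.81), HSPH1 in PrR_C_4W_33_153 (2.78) and St_C_4W_45_159 (2.49), and CCT3 in OM_C_4W_12_146 (2.59) and the subcutaneous array Su_C_4W_22_141 (2.59). At 7 days they were HSPE1 in Su_C_1W_111_130 (2.76), HSPH1 in PrR_C_1W_66_109 (2.87), CCT3 in OM_C_1W_99_122 (3.29), and HSPB2 in OM_C_1W_99_122 (2.49) and PrR_C_1W_64_117 (3.16).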

How the results depend on the processing

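Of 120 called values of single members, 60 stayed called under quantile normalization, 87 with arrays shifted to one mean, 112 with array weights, 102 with a trended and robust prior and 66 without muscle-containing arrays, while 61 stayed called whichever array was left out. Under quantile normalization 3 members were called in epicardial fat at 7 days, 12 by the F test at 28 days, 5 in epicardial, 1 in omental and 8 in sternal fat at 28 days, and 5 for the interaction. With arrays shifted to one mean 2 were called in omental fat at 28 days and 3 for the interaction. Array weights gave 5 in perirenal fat and the trended, robust prior 2 in omental fat, both at 28 days. With only probe sets of a mean of at least 4 tested, 1 was called in sternal fat at 7 days, against 0 with all probe sets, and 8 in omental fat with age. Without muscle-containing arrays 1 member each was called in perirenal, sternal and subcutaneous fat at 7 days, 10 by the F test at 28 days, 9 in sternal and 1 in subcutaneous fat at 28 days, and 5 in sternal and 0 in subcutaneous fat with age. With only the depot's arrays 1 was called with age in epicardial, 3 in sternal and 1 in subcutaneous fat. Without the sternal arrays, an alternative chosen after seeing the data, 8 were called by the F test and 3 in omental fat at 28 days, and 5 for the interaction. In sternal fat at 28 days quantile normalization turned CCT8 to 0.136, DNAJC8 to 0.0543, HSPA4 to 0.0179 and DNAJB11 to 0.0974, and the shift turned CCT8 to 0.00368. DNAJB1 with age in sternal fat turned to -0.0316 without muscle-containing arrays. The cause was not tested.

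With 1 array left out the counts at 7 days were 6 to 11 (F test), 4 to 7 in epicardial, 1 to 4 in omental, 1 to 5 in perirenal, 0 to 1 in sternal and 0 in subcutaneous fat. At 28 days they were 17 to 22 (F test), 0 to 3 in epicardial, 3 to 7 in omental, 2 to 4 in perirenal, 15 to 20 in sternal and 1 to 4 in subcutaneous fat. With age they were 0 to 3 in epicardial, 9 to 13 in omental, 5 to 7 in perirenal, 8 to 13 in sternal and 2 to 4 in subcutaneous fat, and 7 to 11 for the interaction.

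The replicate block left 101 of the 120 values called and gave 1 member each in epicardial, perirenal and subcutaneous fat at 28 days. In subcutaneous fat DNAJC1, DNAJC3 and DNAJC10 were lost and the lower HSPB1 stayed, and in perirenal fat HSPB1 and HSP90B1 were lost. Arrays of one number did not deviate together throughout: the residual correlation of same-numbered arrays had a median of 0.046 at 7 days (-0.262 to 0.164, 33 pairs) and 0.057 at 28 days (-0.0818 to 0.317, 39 pairs).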
